A study of Mus musculus with 18 samples.

Results

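The cell cycle and mitosis genes described here are 43 mouse genes that drive or mark dividing cells, from cyclins and replication proteins to the proteins that build the spindle and part the daughter cells. They were taken by gene name from the 37310 genes of the deposited count table, each name matched 1 row, and the matching used no measured value. The genes and their roles were, however, chosen with earlier results of these data known, so the shares called among them are descriptive. RNA was sequenced from cultured mouse cortical neurons, treated after 7 days in culture for 24 h, in 4 groups of 3 libraries. The groups were Fmr1 KO neurons with JQ1, WT neurons with JQ1, Fmr1 KO neurons with the vehicle DMSO, and WT neurons with DMSO. Fmr1 encodes FMRP, an RNA-binding protein whose loss causes fragile X syndrome in humans, and JQ1 is a small molecule that blocks the acetyl-lysine pockets of the BET bromodomain proteins. All 4 groups were grown in Neurobasal medium with B27 and treated at the same age in culture, and the KO groups differed from WT by the Fmr1 allele alone as far as the labels say. The 6 samples treated with THZ1 were not analysed here.

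In a dividing cell, D-type cyclins and their kinases inactivate the retinoblastoma proteins in G1, E2F factors then switch on replication genes, and the minichromosome maintenance (MCM) helicase and the sliding clamp copy the DNA in S phase. Later, cyclin B with Cdk1 starts mitosis, kinetochores attach chromosomes to the spindle, a checkpoint waits for all attachments, and the central spindle guides the parting of the daughter cells. Cortical neurons leave the cycle for good when they are born, so in brain cultures these transcripts are known mainly from progenitors and glia. In bulk RNA, fewer cycling cells and less RNA per cell cannot be told apart.

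Gene counts per library ran from 21643592 to 134110850, and 15433 genes, among them all 43 members, had enough counts to be tested. The lowest count of any member in any library was 67. Within a group the libraries varied beyond counting noise: chi-square over its degrees of freedom, near 1 for noise alone, was 4.80 to 40.96. KO DMSO replicate 3 stood farthest from its group (40.1 and 40.96). Levels are given as CPM, counts scaled to the TMM-adjusted size of the library. CPM is not a scale per length, so levels of different genes are not compared. In each list of 3 values the libraries follow their replicate numbers 1, 2 and 3. Differences are log2 changes relative to the middle of all genes, tested with edgeR's quasi-likelihood test over 15433 genes, and a gene passed at a Benjamini-Hochberg adjusted p under 0.05. Whether the libraries of a group came from separate cultures or animals is not stated in the labels. The p-values therefore rest only on the spread between these libraries, which may be technical. Fmr1 itself had 26.02, 27.6 and 34.6 CPM in KO and 145, 154 and 135 CPM in WT neurons with JQ1. With DMSO, Fmr1 had 21.5, 22.2 and 29.4 CPM in KO and 124, 119 and 119 CPM in WT neurons, so that KO lay far below WT. The log2 difference was -2.30 in JQ1 (SE 0.11, adjusted p = 7.65e-08) and -2.31 in DMSO (SE 0.11, adjusted p = 9.2e-08).

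Many cell cycle genes carry short promoter elements that time them to S phase or to mitosis. The 300 bases around the annotated start (250 before it, 50 after it) were read from RefSeq on build GRCm38.p6 for the 37 of 43 members that had an entry. No entry was matched for Ccnd1, Mcm4, Ccna2, Aurkb, Tpx2 and Kif20a. Motifs were searched by exact letters on both strands. The cell cycle homology region, TTTGAA, which binds the complex that holds mitotic genes silent in resting cells, was found in 21 of 37 members (56.8%), against 20.2% of all 27025 genes in the table. The NF-Y box, CCAAT, was found in 31 (83.8%, against 41.1% of all genes). An E2F site, searched as TTCGCGC or TTGGCGC, was found in 9 (24.3%, against 4.47%). All 3 motifs were found in 4 members (10.8%, against 0.337%), and none in 5 (13.5%, against 45.7%). A pair of different motifs overlapped 6 times. These matches describe letters and not bound sites.

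The matches differed by role. Of the 6 matched genes of replication licensing and the fork, 4 held an E2F site and 1 the cell cycle homology region. By contrast, 0 of the 3 genes of nucleotide supply and 0 of the 2 matched G1 regulators held an E2F site. Among the 6 matched mitotic cyclins and entry kinases, 2 held an E2F site and 4 the cell cycle homology region. Of the 4 matched genes of the central spindle and cytokinesis, 1 held an E2F site and 4 the cell cycle homology region, as did 3 of the 3 genes of chromosome structure. Of the 71 NF-Y boxes in the 40 promoter entries of these genes, 51 lay within the last 100 bases before the start, and their median position was -62. The median position was -15 for the 29 cell cycle homology regions and -67 for the 19 E2F matches. Mcm3, Mcm5, Mcm6 and Mcm7 held E2F matches that overlapped on opposite strands. Each strand was counted, so the E2F matches outnumber the distinct sites. Ect2 and Prc1 each had overlapping promoter entries, so these counts hold the same motifs in each entry, at shifted positions. Positions over all genes were not examined. The 5 sequences below are printed 5′ to 3′ along the gene, in lower case with the motifs on either strand in capitals (CCAAT reads ATTGG on the other strand). Racgap1, Pcna and Mcm7 had the smallest adjusted p for JQ1 in WT neurons among the members with each motif. Cdk1, which held all 3 motifs, and Cenpf, which fell in KO neurons under both treatments, were added after their values were seen.
Racgap1, chr15:99651607-99651906, minus strand: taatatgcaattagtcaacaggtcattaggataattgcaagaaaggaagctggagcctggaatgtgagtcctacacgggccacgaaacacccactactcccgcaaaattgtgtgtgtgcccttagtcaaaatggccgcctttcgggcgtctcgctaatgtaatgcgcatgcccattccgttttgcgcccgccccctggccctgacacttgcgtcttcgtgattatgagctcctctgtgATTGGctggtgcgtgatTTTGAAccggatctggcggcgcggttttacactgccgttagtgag
Pcna, chr2:132253131-132253430, minus strand: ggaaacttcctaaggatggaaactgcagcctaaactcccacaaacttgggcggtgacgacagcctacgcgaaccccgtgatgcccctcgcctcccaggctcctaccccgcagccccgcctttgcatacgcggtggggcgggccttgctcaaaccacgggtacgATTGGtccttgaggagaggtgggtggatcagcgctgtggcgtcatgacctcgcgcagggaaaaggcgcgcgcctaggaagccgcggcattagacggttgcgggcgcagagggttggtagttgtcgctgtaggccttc
Mcm7, chr5:138171834-138172133, minus strand: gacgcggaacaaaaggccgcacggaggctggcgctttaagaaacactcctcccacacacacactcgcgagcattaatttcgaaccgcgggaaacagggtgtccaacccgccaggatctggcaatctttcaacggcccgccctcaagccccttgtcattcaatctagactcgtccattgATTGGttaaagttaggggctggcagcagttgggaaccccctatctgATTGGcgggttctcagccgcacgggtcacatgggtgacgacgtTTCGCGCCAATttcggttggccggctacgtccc
Cdk1, chr10:69352863-69353162, minus strand: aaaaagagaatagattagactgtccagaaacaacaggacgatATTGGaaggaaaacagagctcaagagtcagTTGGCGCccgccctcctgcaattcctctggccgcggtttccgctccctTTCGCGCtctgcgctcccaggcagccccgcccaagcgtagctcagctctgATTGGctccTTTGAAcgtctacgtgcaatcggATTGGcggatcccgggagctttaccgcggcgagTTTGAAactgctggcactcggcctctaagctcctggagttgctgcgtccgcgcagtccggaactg
Cenpf, chr1:189688037-189688336, minus strand: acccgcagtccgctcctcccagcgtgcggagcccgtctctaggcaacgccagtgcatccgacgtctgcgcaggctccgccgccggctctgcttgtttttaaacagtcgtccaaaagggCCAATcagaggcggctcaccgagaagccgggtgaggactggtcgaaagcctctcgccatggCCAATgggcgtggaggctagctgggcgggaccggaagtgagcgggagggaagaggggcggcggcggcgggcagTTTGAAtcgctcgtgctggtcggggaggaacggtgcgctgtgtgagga
Racgap1 held a cell cycle homology region at 6 bases after its start and an NF-Y box at -12, and Pcna held a single NF-Y box at -87. In Mcm7 the E2F letters and an NF-Y box ran into each other between 18 and 24 bases after the start. Cdk1 held 2 cell cycle homology regions (-71 and -15), 3 NF-Y boxes and 2 E2F sites, and in Cenpf 2 NF-Y boxes (-132 and -71) preceded a cell cycle homology region at 3.

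**Figure D1:**
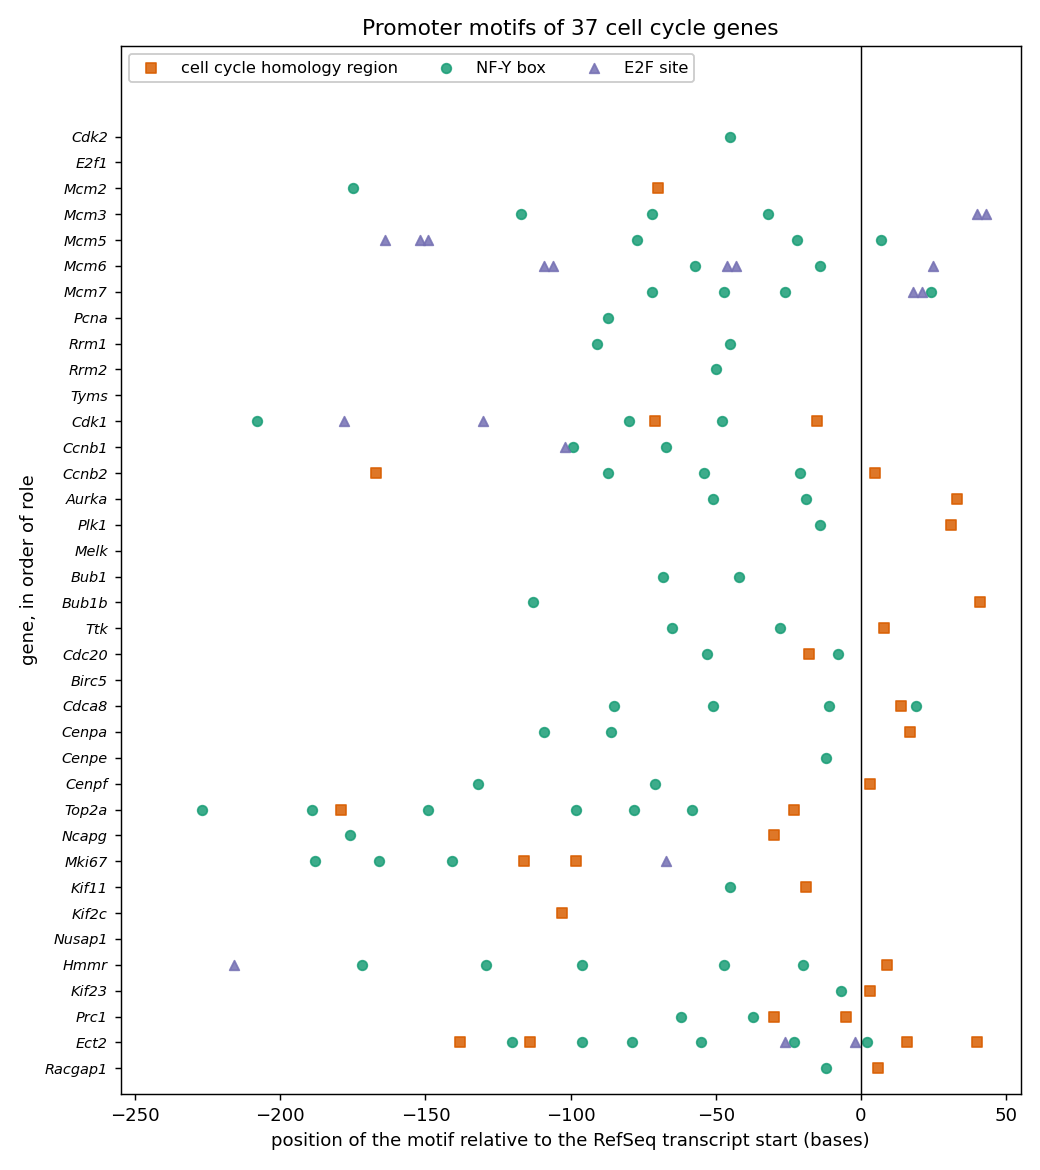
Position in bases relative to the RefSeq start (x axis) of every match to the 3 motifs in the 37 matched members (rows, in order of role); squares are cell cycle homology regions, circles NF-Y boxes and triangles E2F sites. Circles gather in the last 100 bases before the start (51 of 71), while squares lie nearer the start, around -15. Motifs shared by the overlapping entries of Ect2 and of Prc1 are shown and counted in each entry. Overlapping E2F matches on opposite strands are each shown.

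In DMSO, genes of S phase and of every mitotic role had members that fell in KO against WT neurons, while cyclin D1 rose. Of the 43 members, 16 fell and 1, Ccnd1, rose, which is 39.5% called, beside 15% of all genes tested in that comparison. The share that fell was 37.2%, beside 7.76% of all genes, and the share that rose was 2.33%, beside 7.21%. The log2 change was negative in 39 of 43 members, with a median of -0.35 against -0.01 over all genes. In 28 members (65.1%) every KO library lay below every WT library, and in 3 every KO library lay above, beside 20.7% and 17% of all genes. The count and its distance from the background depended on single libraries. Without KO DMSO replicate 1 it was 3 (6.98%, beside 5.77% of all genes), without replicate 2 it was 4 (9.30%, beside 8.22%) and without replicate 3 it was 23 (53.5%, beside 16.6%). Without WT DMSO replicate 1 it was 10 (23.3%, beside 7.39%), without replicate 2 it was 5 (11.6%, beside 7.19%) and without replicate 3 it was 4 (9.30%, beside 8.07%). With KO DMSO replicate 1 or 2 or WT DMSO replicate 3 left out, the members' share was thus near that of all genes. It was 9 (20.9%, beside 12%) without WT JQ1 replicate 1, which enters only through the shared fit, and 26 (60.5%, beside 20.3%) without both KO replicate 3 libraries. Ccnd1, Cenpf and Ncapg passed with any 1 of the 12 libraries left out, the only 3 of the 17 calls to do so. Of these 12 fits, Aurkb passed in 4, Prc1 in 5, and Rrm2, Ccna2, Kif11 and Ect2 in 6. Tyms, Ccnb1 and Bub1 passed in 7, Rrm1, Cdk1 and Nusap1 in 8, Cenpe in 9 and Mcm4 in 11. With the ERCC spike-in sequences as the scale, 42 members passed as lower in KO and none as higher, but so scaled 77.7% of all genes were called and their median log2 change was -0.82. The amount of ERCC added to each sample is not given here, and ERCC made up 0.168 to 0.348% of the counts within the KO DMSO libraries alone.

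In JQ1 the same direction was seen with fewer calls. Same-numbered JQ1 and DMSO libraries of a genotype deviated together, with correlations of 0.21 to 0.29 in KO and 0.094 to 0.16 in WT neurons. The genotype differences in JQ1 and in DMSO may therefore not be independent. Of the 43 members, 7 fell and 0 rose in KO against WT neurons, 16.3% beside 8.97% of all genes called, of which 4.13% were lower and 4.85% higher. DESeq2 called 16 members, all lower, which is 37.2% beside 14.3% of all genes in that test. The members that fell were Mcm4, Cenpe, Cenpf, Top2a, Ncapg, Mki67 and Tpx2, and Mcm4, Cenpe, Cenpf and Ncapg had fallen in DMSO too. At an unadjusted p under 0.05, 1 member, Ccnd1, was higher in KO. The log2 change was negative in 42 of 43 members, with a median of -0.30 against -0.0045 over all genes. KO libraries lay wholly below WT libraries in 21 members (48.8%, beside 12.8% of all genes) and wholly above in 1. The count was 4 (3 lower and 1 higher) without KO JQ1 replicate 1 and 14 without KO JQ1 replicate 3 (9.30% and 32.6%, beside 3.79% and 12.7% of all genes). It was 4 without WT JQ1 replicate 1 and 2 without WT JQ1 replicate 2 (9.30% and 4.65%, beside 3.59% and 3.48%), and only Cenpe and Cenpf passed in all 12 fits that left out a library. With the ERCC scale no member and 0.149% of all genes passed.

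**Figure D2:**
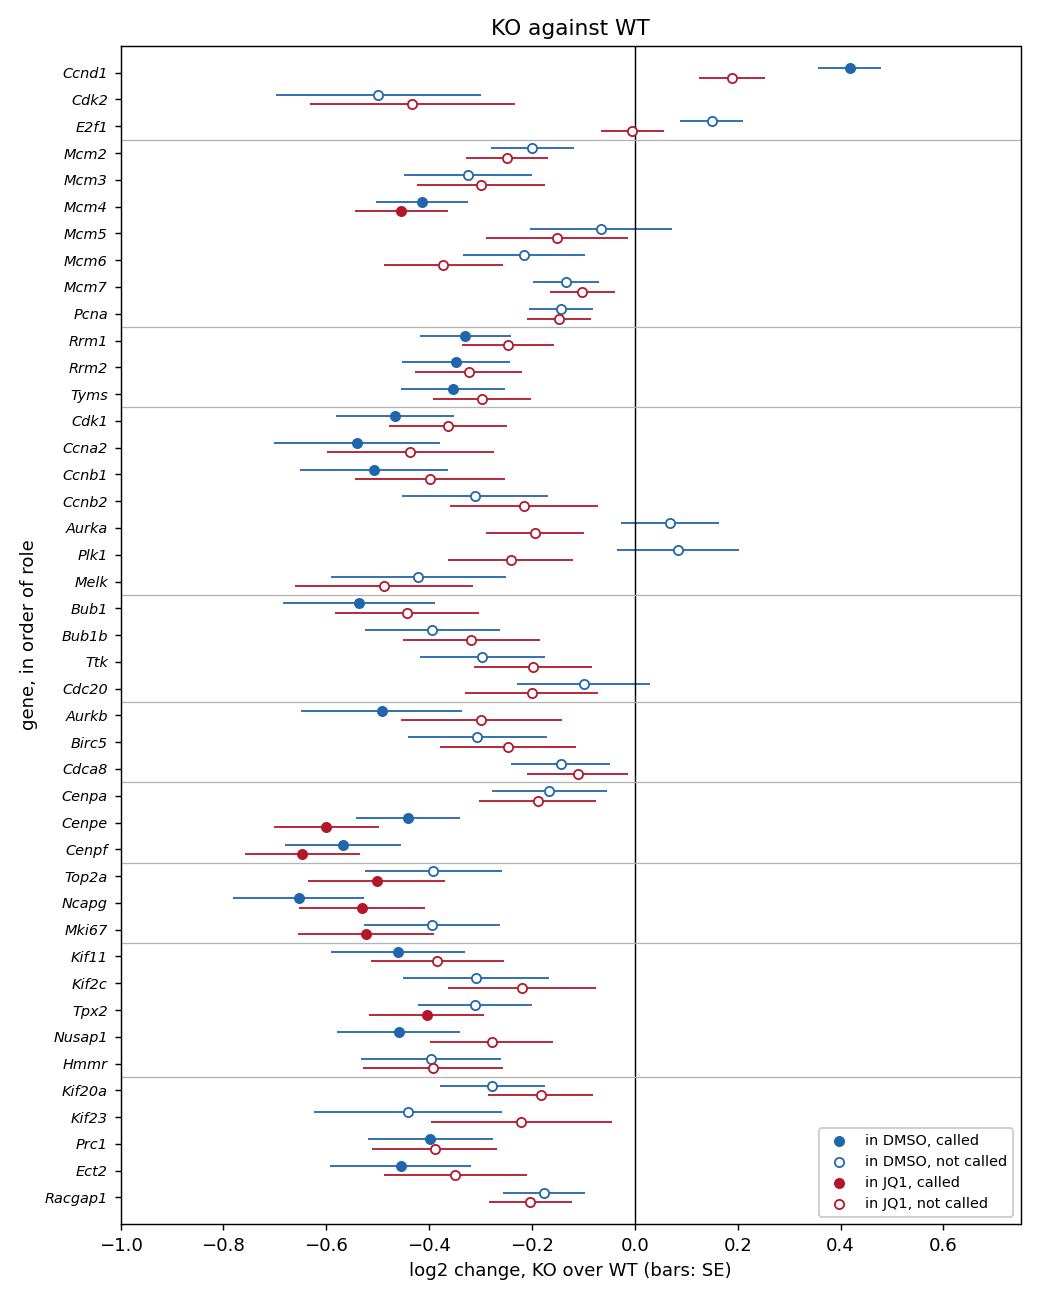
Log2 change of each of the 43 members in KO against WT neurons, in JQ1 and in DMSO, with bars of 1 SE from edgeR's quasi-likelihood test on 3 libraries a group. Filled points passed at an adjusted p under 0.05, and nearly all points lie left of 0, with Ccnd1 in DMSO (0.42) as the one that passed on the right.

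The libraries themselves differed in the level of the whole group of genes. In KO neurons with JQ1, replicate 1 was the lowest of its group in 43 of 43 members, with a median log2 deviation of -0.47 from the mean of all libraries, against -0.04 and 0.01 in replicates 2 and 3. In KO neurons with DMSO, replicate 3 was the highest in 39 members, in WT neurons with JQ1 replicate 2 in 34, and in WT neurons with DMSO replicate 3 in 36. The summed level of 12 neural progenitor markers was lower in KO libraries too. It was 544, 790.0 and 793 CPM in KO neurons with JQ1, 897, 1065 and 894 in WT neurons with JQ1, 764, 864 and 974 in KO neurons with DMSO, and 1022, 1144 and 1185 in WT neurons with DMSO. Replicate 1 of KO neurons with JQ1 was thus low in both, and every KO library lay below every WT library within a treatment. Between treatments, each sum was lower with JQ1 than in the DMSO library of its genotype and number. The labels give these numbers no meaning. Median member deviations were lower with JQ1 in KO replicate 1 (-0.47, against -0.24 with DMSO) and WT replicate 3 (0.09, against 0.28). They were higher with JQ1 in KO replicates 2 and 3 (-0.04 and 0.01, against -0.24 and -0.04). In WT replicates 1 and 2 they were higher too (0.14 and 0.27, against 0.10 and 0.17). Of these 12 markers, 1 (Hes5) fell in KO against WT in DMSO, 3 (Vim, Nes and Insm1) fell in JQ1, and none rose in either. That is 8.33% and 25.0% lower, beside 7.76% and 4.13% of all genes. The log2 change was negative in 10 markers and positive in 2 in DMSO, and its highest value was 1.53. In JQ1 it was negative in 11. The 1 positive marker there, at 1.95, was higher in KO at an unadjusted p under 0.05 but did not pass.

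Astrocyte markers summed to less in KO neurons too, with some overlap in JQ1, and markers of non-neural cells were low. The summed level of 12 astrocyte markers was 472 to 708 CPM in KO and 689 to 910 CPM in WT neurons with JQ1, and 710 to 943 CPM in KO and 975 to 1176 CPM in WT neurons with DMSO. Of these markers, 2 (Fgfr3 and Gja1) fell in KO in DMSO and 1 (Fgfr3) in JQ1. That is 16.7% and 8.33% lower, beside 7.76% and 4.13% of all genes, and none rose. At an unadjusted p under 0.05, 1 of them was higher in KO in JQ1 (log2 change 0.43). Neuron markers, 7 genes, summed to 6222 to 6662 CPM in KO and 5875 to 5968 CPM in WT neurons with JQ1, and to 6841 to 7234 CPM in KO and 6143 to 6577 CPM in WT neurons with DMSO. Of the 7, 4 rose in KO in DMSO and 2 in JQ1, which is 57.1% and 28.6% higher, beside 7.21% and 4.85% of all genes. Oligodendrocyte precursor markers summed to 129 to 197 CPM over the 12 libraries and overlapped between genotypes. Microglia markers summed to 6.75 to 13.4 CPM, with P2ry12 at 0 in all KO libraries with JQ1 and Tmem119 at 0 in all WT libraries with JQ1. Endothelial markers summed to 0.661 to 2.93 CPM, each of the 6 under 1 CPM. Fibroblast and mural markers, 7 genes, summed to 9.39 to 10.98 CPM in KO and 15.4 to 20.6 CPM in WT neurons with JQ1, and to 13.0 to 16.5 CPM in KO and 27.1 to 36.0 CPM in WT neurons with DMSO. Of these, Col3a1 rose and Dcn and Lum fell in KO in DMSO, and Dcn fell in JQ1. That is 14.3% higher and 28.6% lower in DMSO, beside 7.21% and 7.76% of all genes. In JQ1 it is 14.3% lower, beside 4.13%. The median log2 change of this list had the opposite sign to its sum, at 0.71 in JQ1 and 0.98 in DMSO. The part of the progenitor, astrocyte and fibroblast RNA in the lower levels of the members was not tested.

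**Figure D3:**
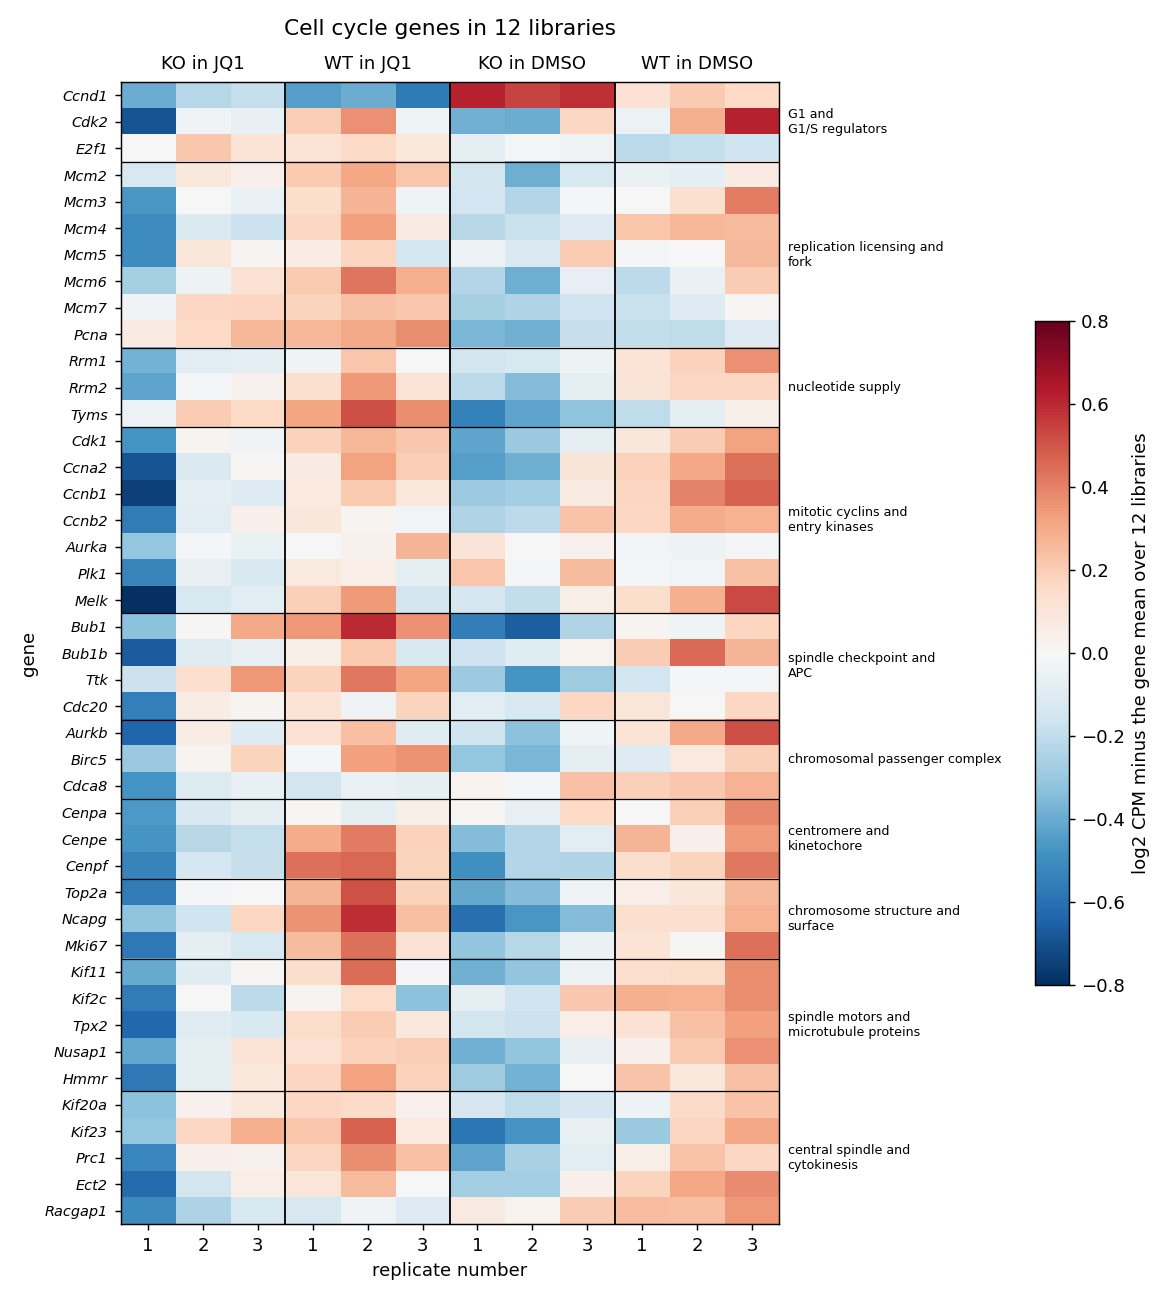
Level of each of the 43 members (rows, by role) in each of the 12 libraries (columns, by group); colour is log2 CPM minus the gene's mean over the 12 libraries, red above it and blue below. WT libraries are mostly above 0. KO with JQ1 replicate 1 and KO with DMSO replicates 1 and 2 are mostly below 0. KO with JQ1 replicates 2 and 3 and KO with DMSO replicate 3 have medians near 0 (-0.04, 0.01 and -0.04). KO with JQ1 replicate 1 is the lowest column of its group in 43 of 43 rows.

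JQ1 changed members in both directions, in a smaller share than over all genes. In KO neurons 8 rose and 4 fell against DMSO, 27.9% called beside 57.1% of all genes, and in WT neurons 8 rose and 3 fell, 25.6% beside 55.1%. The share of members that fell was 9.30% in KO and 6.98% in WT neurons, beside 29.4% and 29.3% of all genes, and the share that rose was 18.6% in both, beside 27.7% and 25.9%. The median log2 change of the members was -0.0086 in KO and 0.0092 in WT neurons. Replication and nucleotide genes (Mcm2, Mcm7, Pcna and Tyms), E2f1 and the checkpoint kinases Bub1 and Ttk rose in both genotypes, and Ccnd1, Cdca8 and Racgap1 fell in both. Ncapg rose and Plk1 fell in KO neurons, and Mcm6 rose in WT neurons, with no tested difference between genotypes. JQ1 libraries lay wholly above DMSO libraries in 6 members in KO and 9 in WT neurons (13.95% and 20.9%, beside 29.7% and 30.3% of all genes). They lay wholly below in 6 and 5 (13.95% and 11.63%, beside 31.1% and 32.3%). Ccnd1, Mcm7, Pcna, Tyms and Racgap1 kept their call in both genotypes with any 1 library left out. With the ERCC scale no member passed in KO neurons, where 9.85% of all genes did. In WT neurons 12 passed as lower and 0 as higher, 27.9% beside 37.9% of all genes, whose median was -0.63.

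**Figure D4:**
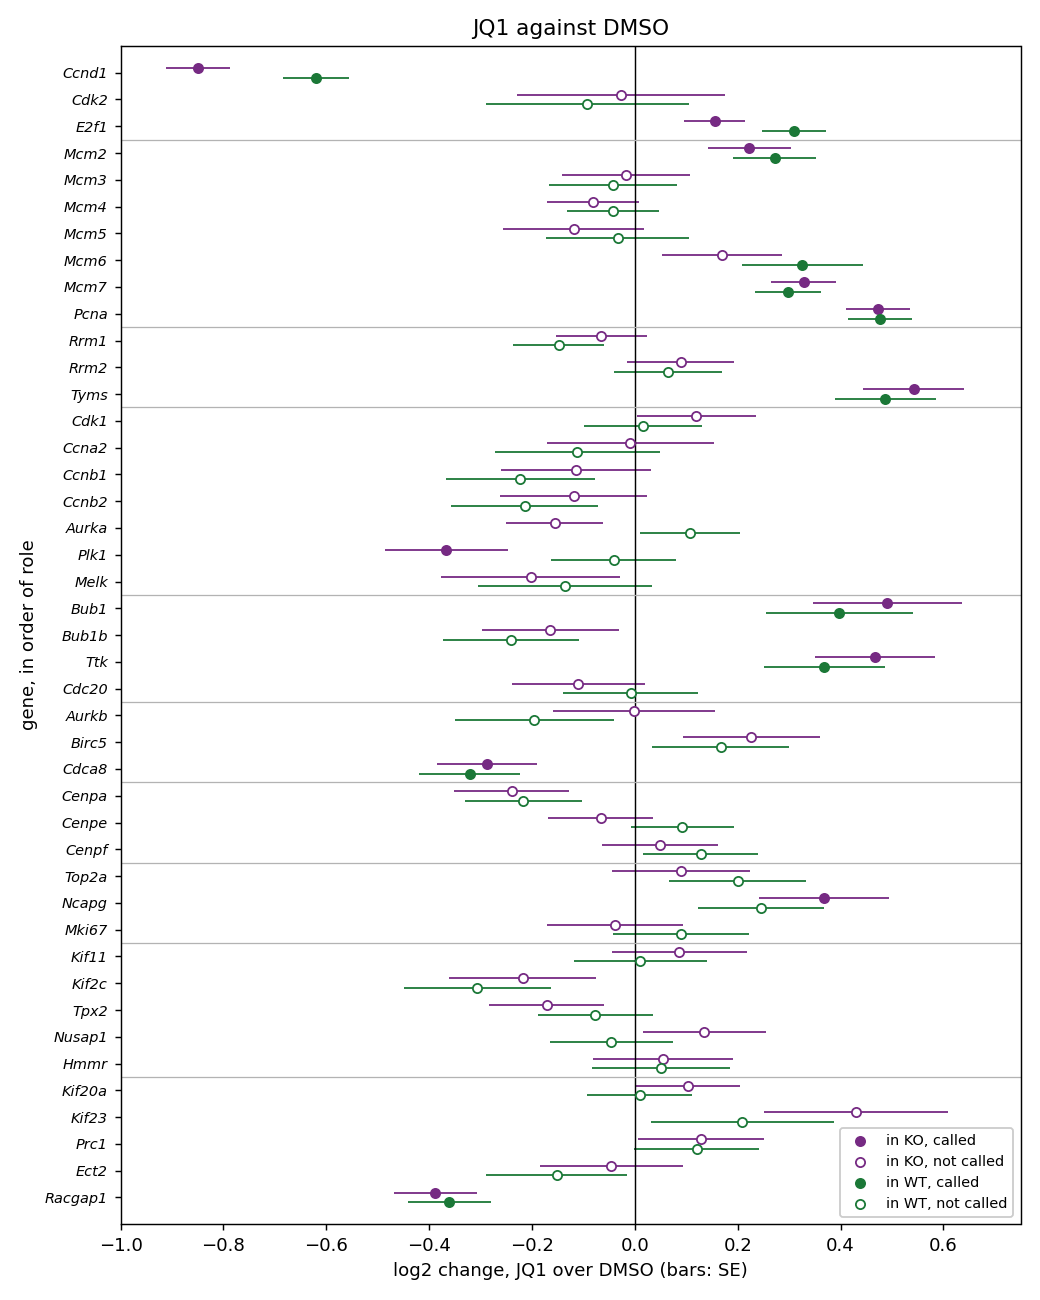
Log2 change of each of the 43 members in JQ1 against DMSO, in KO and in WT neurons, with bars of 1 SE from edgeR's quasi-likelihood test on 3 libraries a group. Filled points passed at an adjusted p under 0.05: Pcna and Tyms lie near 0.5 in both genotypes and Ccnd1 at -0.85 in KO and -0.62 in WT neurons.

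The response to JQ1 was also compared between genotypes. No member and no gene of the 15433 passed this test in edgeR or in DESeq2 (0% called). At an unadjusted p under 0.05 there were 355 genes, of which 1 was a member. That member was Ccnd1, whose log2 response was -0.85 in KO and -0.62 in WT neurons, a difference of -0.23 (SE 0.089, adjusted p = 1 in edgeR). The median difference over the members was 0.03.

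Among the regulators of G1 and of entry into S phase, cyclin D1 fell with JQ1 and E2f1 rose. Ccnd1, the regulatory subunit of Cdk4 and Cdk6, had 20.1, 22.6 and 23.1 CPM in KO and 19.4, 20.05 and 17.8 CPM in WT neurons with JQ1. With DMSO, Ccnd1 had 40.5, 38.4 and 39.7 CPM in KO and 28.6, 30.5 and 29.6 CPM in WT neurons. JQ1 libraries lay below DMSO libraries in both genotypes, with a log2 difference of -0.85 (SE 0.062, adjusted p = 9.03e-08) in KO and -0.62 (SE 0.064, adjusted p = 2.2e-06) in WT neurons. KO libraries lay above WT libraries in both treatments, with a log2 difference of 0.42 (SE 0.062, adjusted p = 0.00138) in DMSO and 0.19 (SE 0.064, adjusted p = 0.0772) in JQ1. E2f1, an activator of S phase genes, had 18.3, 21.1 and 19.7 CPM in KO and 19.7, 20.3 and 19.4 CPM in WT neurons with JQ1. With DMSO, E2f1 had 17.3, 18.1 and 17.9 CPM in KO and 15.7, 16.004 and 16.3 CPM in WT neurons. It rose with JQ1 in both genotypes without overlap, with a log2 difference of 0.15 (SE 0.06, adjusted p = 0.0396) in KO and 0.31 (SE 0.062, adjusted p = 0.000751) in WT neurons, and KO and WT libraries overlapped in JQ1 but not in DMSO, where the difference did not pass (0.15, adjusted p = 0.114). The E2f1 call in KO neurons was lost without any 1 of 8 libraries and in DESeq2 (adjusted p = 0.0547). Cdk2, the kinase partner of cyclins E and A, had 2.67, 4.21 and 4.13 CPM in KO and 4.92, 5.53 and 4.20 CPM in WT neurons with JQ1. With DMSO, Cdk2 had 3.29, 3.26 and 4.82 CPM in KO and 4.16, 5.26 and 6.57 CPM in WT neurons. Its libraries overlapped in every comparison and none passed.

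**Figure D5:**
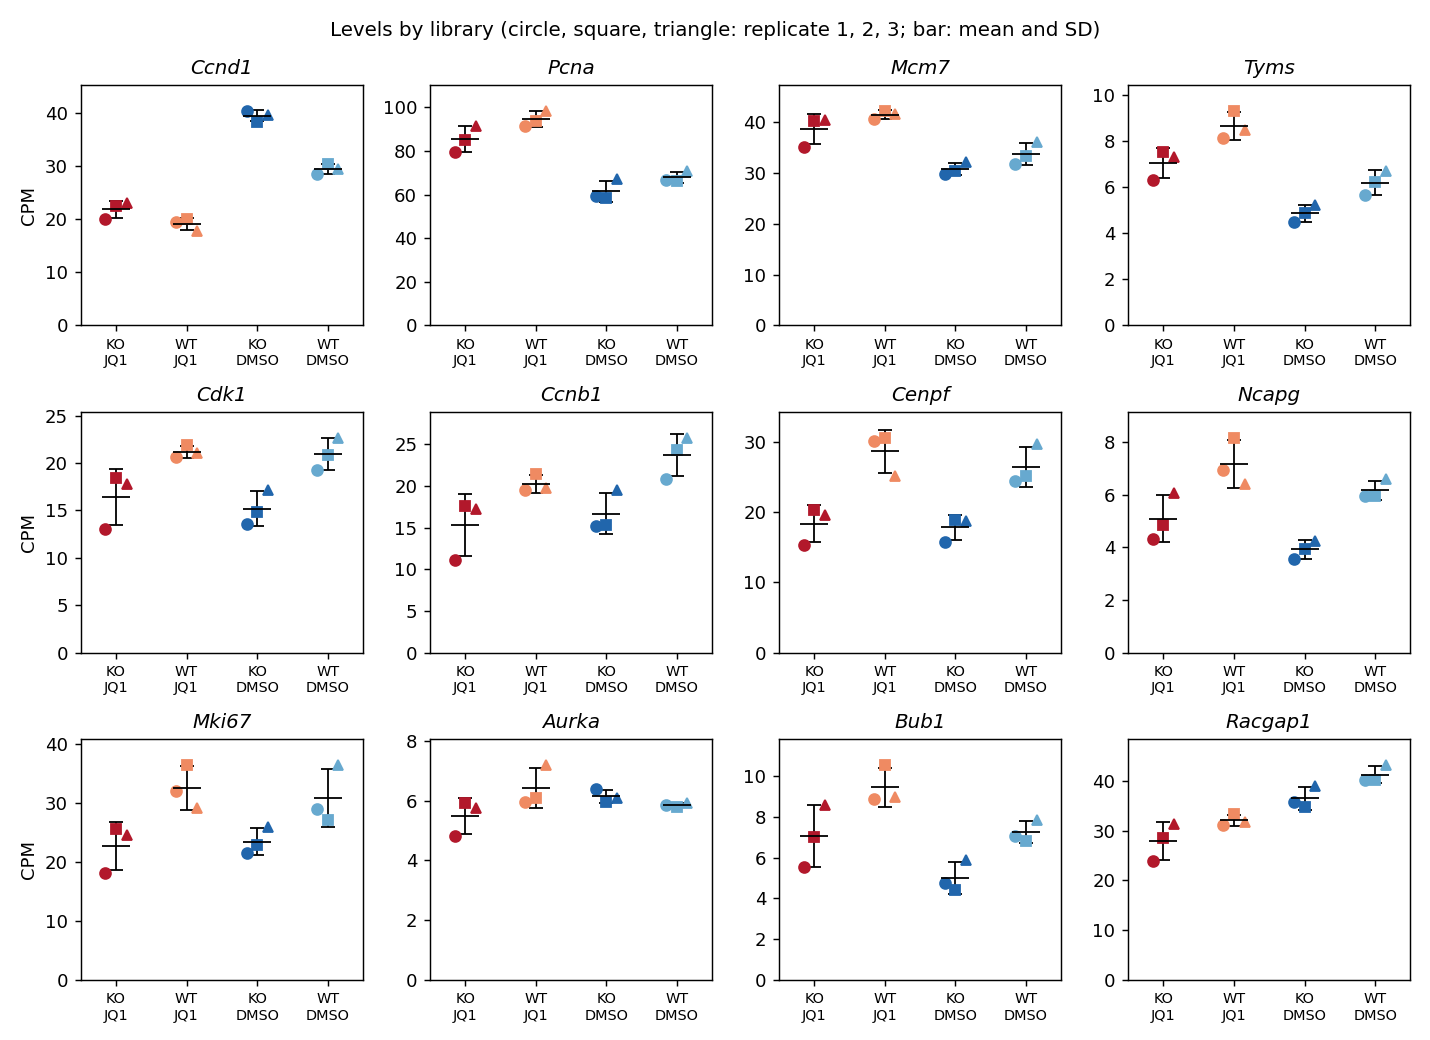
CPM (y axis, from 0) of 12 members in each library, with circle, square and triangle for replicates 1, 2 and 3 and bars for the mean and SD of a group, in the order KO JQ1, WT JQ1, KO DMSO and WT DMSO. Ccnd1 is lower with JQ1 in both genotypes, while Cenpf is lower in KO libraries under both treatments.

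The genes of replication licensing and of the fork rose with JQ1 in part, and Mcm4 fell in KO neurons. Of 7, JQ1 raised 3 in KO and 4 in WT neurons, and 1 fell in KO against WT in each treatment. With JQ1 that is 42.9% and 57.1% higher, beside 27.7% and 25.9% of all genes. Between genotypes it is 14.3% lower in each treatment, beside 7.76% of all genes in DMSO and 4.13% in JQ1. Pcna, the sliding clamp that tethers DNA polymerase, had 79.6, 85.1 and 91.7 CPM in KO and 91.7, 93.9 and 98.5 CPM in WT neurons with JQ1. With DMSO, Pcna had 59.2, 58.4 and 67.03 CPM in KO and 66.6, 66.3 and 70.97 CPM in WT neurons. All JQ1 libraries lay above all DMSO libraries of their genotype, with a log2 difference of 0.47 (SE 0.062, adjusted p = 1.86e-05) in KO and 0.48 (SE 0.063, adjusted p = 1.98e-05) in WT neurons, and genotypes overlapped. Mcm7, a subunit of the replicative helicase, had 35.2, 40.2 and 40.4 CPM in KO and 40.6, 42.2 and 41.6 CPM in WT neurons with JQ1. With DMSO, Mcm7 had 29.8, 30.3 and 32.2 CPM in KO and 31.8, 33.4 and 36.1 CPM in WT neurons. Its JQ1 libraries were also wholly above DMSO, with a log2 difference of 0.33 (SE 0.063, adjusted p = 0.000497) in KO and 0.30 (SE 0.064, adjusted p = 0.00124) in WT neurons. Mcm2, of the same helicase, had 16.4, 18.98 and 18.4 CPM in KO and 20.8, 22.2 and 20.9 CPM in WT neurons with JQ1. With DMSO, Mcm2 had 16.2, 13.6 and 16.4 CPM in KO and 17.3, 16.98 and 18.8 CPM in WT neurons. It rose, with a log2 difference of 0.22 (SE 0.08, adjusted p = 0.028) in KO neurons, where libraries overlapped, and 0.27 (SE 0.081, adjusted p = 0.0107) in WT neurons, where they did not. Mcm4, a helicase subunit too, showed the genotype difference instead, with 14.6, 19.02 and 18.3 CPM in KO and 23.2, 25.9 and 21.6 CPM in WT neurons with JQ1. With DMSO, Mcm4 had 17.7, 18.2 and 19.2 CPM in KO and 24.1, 24.8 and 24.6 CPM in WT neurons. KO libraries lay below WT libraries in both treatments, with a log2 difference of -0.45 (SE 0.09, adjusted p = 0.00844) in JQ1 and -0.41 (SE 0.089, adjusted p = 0.00927) in DMSO, and JQ1 left the libraries overlapping. Mcm6 had 13.6, 15.9 and 17.8 CPM in KO and 18.9, 22.1 and 19.98 CPM in WT neurons with JQ1. With DMSO, Mcm6 had 13.9, 12.5 and 15.7 CPM in KO and 14.1, 15.8 and 18.9 CPM in WT neurons, and rose with JQ1 in WT neurons (0.33, adjusted p = 0.0289), against 0.17 (adjusted p = 0.232) in KO neurons. Mcm3 and Mcm5, the remaining helicase subunits, passed in no comparison, with log2 changes in KO against WT of -0.30 and -0.15 in JQ1 and of -0.32 and -0.07 in DMSO.

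All 3 genes of nucleotide supply fell in KO neurons with DMSO, and 1 rose with JQ1. The share that fell was 100%, beside 7.76% of all genes. The share that rose with JQ1 was 33.3% in each genotype, beside 27.7% of all genes in KO and 25.9% in WT neurons. Tyms, thymidylate synthase, did both and had 6.31, 7.51 and 7.30 CPM in KO and 8.13, 9.30 and 8.45 CPM in WT neurons with JQ1. With DMSO, Tyms had 4.49, 4.86 and 5.21 CPM in KO and 5.66, 6.21 and 6.71 CPM in WT neurons. JQ1 libraries lay wholly above DMSO libraries, with a log2 difference of 0.54 (SE 0.098, adjusted p = 0.000305) in KO and 0.49 (SE 0.098, adjusted p = 0.000783) in WT neurons. KO libraries lay wholly below WT libraries, with a log2 difference of -0.35 (SE 0.1, adjusted p = 0.0324) in DMSO and -0.30 (SE 0.095, adjusted p = 0.0641) in JQ1. Rrm1, the large subunit of ribonucleotide reductase, had 31.8, 39.03 and 39.5 CPM in KO and 40.7, 48.3 and 41.5 CPM in WT neurons with JQ1. With DMSO, Rrm1 had 37.5, 37.8 and 40.3 CPM in KO and 44.7, 47.1 and 53.3 CPM in WT neurons. KO lay below WT without overlap in both treatments, with a log2 difference of -0.25 (SE 0.089, adjusted p = 0.0965) in JQ1 and -0.33 (SE 0.089, adjusted p = 0.025) in DMSO. Rrm2, its small subunit, had 25.2, 33.6 and 34.7 CPM in KO and 37.02, 43.03 and 36.5 CPM in WT neurons with JQ1. With DMSO, Rrm2 had 29.2, 26.6 and 32.2 CPM in KO and 36.2, 37.9 and 37.9 CPM in WT neurons. The pattern was the same, with a log2 difference of -0.32 (SE 0.1, adjusted p = 0.0664) in JQ1 and -0.35 (SE 0.1, adjusted p = 0.0394) in DMSO, and JQ1 moved neither subunit past the threshold.

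Cdk1 and cyclins A2 and B1 fell in KO neurons with DMSO, whereas the entry kinases Aurka, Plk1 and Melk did not pass between genotypes. Cdk1, the kinase that starts mitosis, had 13.04, 18.4 and 17.8 CPM in KO and 20.6, 21.9 and 21.1 CPM in WT neurons with JQ1. With DMSO, Cdk1 had 13.5, 14.8 and 17.2 CPM in KO and 19.3, 20.9 and 22.7 CPM in WT neurons. KO libraries lay below WT libraries in both treatments, with a log2 difference of -0.36 (SE 0.11, adjusted p = 0.0616) in JQ1 and -0.47 (SE 0.12, adjusted p = 0.017) in DMSO. Ccna2, cyclin A2, had 10.48, 15.6 and 17.1 CPM in KO and 17.7, 21.2 and 19.4 CPM in WT neurons with JQ1. With DMSO, Ccna2 had 12.5, 12.9 and 18.2 CPM in KO and 19.3, 20.98 and 23.02 CPM in WT neurons. It fell, with a log2 difference of -0.54 (SE 0.16, adjusted p = 0.038) in DMSO and the log2 difference in JQ1 was -0.44 (SE 0.16, adjusted p = 0.104). Ccnb1, cyclin B1, had 11.1, 17.6 and 17.3 CPM in KO and 19.6, 21.4 and 19.7 CPM in WT neurons with JQ1. With DMSO, Ccnb1 had 15.2, 15.3 and 19.5 CPM in KO and 20.9, 24.4 and 25.8 CPM in WT neurons. Its log2 difference was -0.51 (SE 0.14, adjusted p = 0.0315) in DMSO and -0.40 (SE 0.15, adjusted p = 0.0989) in JQ1, again without overlap. Ccnb2, cyclin B2, had 3.67, 5.07 and 5.56 CPM in KO and 5.77, 5.498 and 5.32 CPM in WT neurons with JQ1. With DMSO, Ccnb2 had 4.58, 4.69 and 6.33 CPM in KO and 6.07, 6.66 and 6.57 CPM in WT neurons, and its genotypes overlapped in both treatments. Aurka, the centrosome kinase Aurora A, had 4.80, 5.91 and 5.74 CPM in KO and 5.96, 6.09 and 7.19 CPM in WT neurons with JQ1. With DMSO, Aurka had 6.38, 5.96 and 6.09 CPM in KO and 5.86, 5.79 and 5.91 CPM in WT neurons, and KO libraries lay below WT libraries in JQ1 and above them in DMSO with no call (log2 change -0.19, adjusted p = 0.212, and 0.07, adjusted p = 0.674). Plk1, Polo-like kinase 1, which acts on centrosomes and kinetochores, had 4.72, 6.54 and 6.25 CPM in KO and 7.19, 7.07 and 6.44 CPM in WT neurons with JQ1. With DMSO, Plk1 had 7.94, 6.73 and 8.14 CPM in KO and 6.74, 6.71 and 8.03 CPM in WT neurons. It fell with JQ1 in KO neurons, where JQ1 libraries lay wholly below DMSO, with a log2 difference of -0.37 (SE 0.12, adjusted p = 0.0168), against -0.041 (SE 0.12, adjusted p = 0.796) in WT neurons, and its call was lost without KO JQ1 replicate 1 (adjusted p = 0.075). Melk, a kinase abundant in cycling progenitors, had 1.93, 3.17 and 3.26 CPM in KO and 3.94, 4.38 and 3.13 CPM in WT neurons with JQ1. With DMSO, Melk had 3.14, 3.02 and 3.57 CPM in KO and 3.81, 4.21 and 4.98 CPM in WT neurons, and its log2 change in KO against WT was -0.49 in JQ1 and -0.42 in DMSO with no call.

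The spindle checkpoint kinases Bub1 and Ttk rose with JQ1, and Bub1 fell in KO neurons with DMSO. Bub1, which recruits checkpoint proteins to kinetochores, had 5.54, 7.02 and 8.61 CPM in KO and 8.86, 10.6 and 8.96 CPM in WT neurons with JQ1. With DMSO, Bub1 had 4.74, 4.41 and 5.89 CPM in KO and 7.09, 6.82 and 7.87 CPM in WT neurons. With JQ1 it rose, with a log2 difference of 0.49 (SE 0.14, adjusted p = 0.00979) in KO neurons, where libraries overlapped, and 0.40 (SE 0.14, adjusted p = 0.0281) in WT neurons, where they did not. KO against WT, its log2 difference was -0.44 (SE 0.14, adjusted p = 0.0617) in JQ1 and -0.54 (SE 0.15, adjusted p = 0.0272) in DMSO, without overlap in either. Ttk, the kinase that starts checkpoint signalling, had 5.41, 6.66 and 7.75 CPM in KO and 6.88, 8.14 and 7.56 CPM in WT neurons with JQ1. With DMSO, Ttk had 4.96, 4.38 and 4.99 CPM in KO and 5.48, 6.05 and 6.02 CPM in WT neurons. JQ1 libraries lay wholly above DMSO libraries, with a log2 difference of 0.47 (SE 0.12, adjusted p = 0.00354) in KO and 0.37 (SE 0.12, adjusted p = 0.016) in WT neurons. Bub1b, the checkpoint protein BubR1, had 5.49, 8.13 and 8.29 CPM in KO and 8.96, 10.1 and 7.98 CPM in WT neurons with JQ1. With DMSO, Bub1b had 7.74, 8.11 and 8.86 CPM in KO and 10.02, 11.9 and 10.51 CPM in WT neurons, with KO below WT in DMSO and a log2 difference of -0.39 (SE 0.13, adjusted p = 0.0575). Cdc20, the activator of the anaphase-promoting complex that the checkpoint restrains, had 9.21, 14.01 and 13.7 CPM in KO and 14.6, 13.2 and 15.3 CPM in WT neurons with JQ1. With DMSO, Cdc20 had 12.7, 12.3 and 15.1 CPM in KO and 14.4, 13.4 and 15.1 CPM in WT neurons. Its libraries overlapped in every comparison.

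In the chromosomal passenger complex, Cdca8 and Aurkb moved in different comparisons. Cdca8, the subunit Borealin, had 9.10, 11.73 and 12.1 CPM in KO and 11.4, 12.2 and 12.04 CPM in WT neurons with JQ1. With DMSO, Cdca8 had 12.9, 12.5 and 14.9 CPM in KO and 14.5, 14.7 and 15.4 CPM in WT neurons. JQ1 libraries lay wholly below DMSO libraries, with a log2 difference of -0.29 (SE 0.097, adjusted p = 0.02) in KO and -0.32 (SE 0.098, adjusted p = 0.0123) in WT neurons, and genotypes overlapped. Aurkb, the kinase of the complex, had 3.06, 4.95 and 4.43 CPM in KO and 5.17, 5.61 and 4.43 CPM in WT neurons with JQ1. With DMSO, Aurkb had 4.25, 3.79 and 4.64 CPM in KO and 5.13, 5.87 and 6.79 CPM in WT neurons. KO lay below WT in DMSO, with a log2 difference of -0.49 (SE 0.16, adjusted p = 0.0475), and the call was lost without any 1 of 8 libraries. Birc5, survivin, had 5.57, 6.94 and 7.75 CPM in KO and 6.75, 8.60 and 8.78 CPM in WT neurons with JQ1. With DMSO, Birc5 had 5.51, 5.31 and 6.52 CPM in KO and 6.36, 7.21 and 7.81 CPM in WT neurons, and its libraries overlapped in every comparison. With the replicate number as a block, however, JQ1 against DMSO in KO neurons gave Birc5 a log2 change of 0.22 (adjusted p = 0.0428), where it had been 0.23 (adjusted p = 0.162) without the block.

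The large kinetochore proteins Cenpf and Cenpe fell in KO neurons under both treatments. Cenpf, which links kinetochores to microtubules and dynein, had 15.3, 20.3 and 19.5 CPM in KO and 30.2, 30.6 and 25.2 CPM in WT neurons with JQ1. With DMSO, Cenpf had 15.8, 18.9 and 18.8 CPM in KO and 24.5, 25.1 and 29.7 CPM in WT neurons. KO libraries lay wholly below WT libraries in both treatments, with a log2 difference of -0.65 (SE 0.11, adjusted p = 0.00462) in JQ1 and -0.57 (SE 0.11, adjusted p = 0.00636) in DMSO, and both calls held with any 1 library left out. Cenpe, a kinesin that moves chromosomes to the spindle equator, had 8.497, 10.1 and 10.3 CPM in KO and 14.4, 15.7 and 13.4 CPM in WT neurons with JQ1. With DMSO, Cenpe had 9.23, 10.01 and 11.1 CPM in KO and 14.2, 12.1 and 14.9 CPM in WT neurons. Its KO libraries were also wholly below WT, with a log2 difference of -0.60 (SE 0.1, adjusted p = 0.00392) in JQ1 and -0.44 (SE 0.1, adjusted p = 0.012) in DMSO. Cenpa, the histone variant that marks centromeres, had 5.70, 7.23 and 7.45 CPM in KO and 7.92, 7.43 and 8.12 CPM in WT neurons with JQ1. With DMSO, Cenpa had 7.89, 7.49 and 8.78 CPM in KO and 7.88, 8.95 and 10.2 CPM in WT neurons. Its genotypes overlapped, and JQ1 libraries in KO neurons lay below DMSO libraries with a log2 difference of -0.24 (SE 0.11, adjusted p = 0.082), or -0.24 (adjusted p = 0.0407) with the replicate block.

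All 3 genes of chromosome structure fell in KO neurons with JQ1, and 1 of them in DMSO. That is 100% beside 4.13% of all genes in JQ1, and 33.3% beside 7.76% in DMSO. Top2a, the topoisomerase that untangles replicated DNA, had 40.3, 58.7 and 59.6 CPM in KO and 71.7, 84.6 and 67.7 CPM in WT neurons with JQ1. With DMSO, Top2a had 44.8, 46.7 and 57.96 CPM in KO and 61.6, 63.3 and 71.1 CPM in WT neurons. KO lay below WT without overlap, with a log2 difference of -0.50 (SE 0.13, adjusted p = 0.033) in JQ1 and -0.39 (SE 0.13, adjusted p = 0.0623) in DMSO. Mki67, the Ki-67 antigen that coats mitotic chromosomes and marks cycling cells, had 18.05, 25.6 and 24.6 CPM in KO and 32.1, 36.4 and 29.1 CPM in WT neurons with JQ1. With DMSO, Mki67 had 21.6, 22.9 and 25.9 CPM in KO and 29.01, 27.1 and 36.4 CPM in WT neurons. The separation was the same, with a log2 difference of -0.52 (SE 0.13, adjusted p = 0.0263) in JQ1 and -0.39 (SE 0.13, adjusted p = 0.0585) in DMSO. Ncapg, a subunit of condensin I, had 4.33, 4.86 and 6.07 CPM in KO and 6.94, 8.15 and 6.40 CPM in WT neurons with JQ1. With DMSO, Ncapg had 3.56, 3.93 and 4.25 CPM in KO and 5.95, 5.95 and 6.57 CPM in WT neurons. Its log2 difference was -0.53 (SE 0.12, adjusted p = 0.0173) in JQ1 and -0.65 (SE 0.13, adjusted p = 0.00582) in DMSO, without overlap, and JQ1 raised it in KO neurons, with a log2 difference of 0.37 (SE 0.13, adjusted p = 0.0229), against 0.25 (SE 0.12, adjusted p = 0.105) in WT neurons. In KO against WT with JQ1, the calls of Top2a, Mki67 and Ncapg each held in 9 of 12 fits that left out a library. Each was lost without KO JQ1 replicate 1 and without WT JQ1 replicate 2.

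Among the spindle motors and microtubule proteins, 2 of 5 fell in KO neurons with DMSO and 1 with JQ1. That is 40% beside 7.76% of all genes in DMSO, and 20% beside 4.13% in JQ1. Kif11, the motor that pushes spindle poles apart, had 11.1, 13.7 and 14.8 CPM in KO and 16.2, 20.1 and 14.6 CPM in WT neurons with JQ1. With DMSO, Kif11 had 11.3, 11.8 and 14.3 CPM in KO and 16.1, 16.3 and 19.01 CPM in WT neurons. It fell in DMSO without overlap, with a log2 difference of -0.46 (SE 0.13, adjusted p = 0.0309), and overlapped in JQ1. Nusap1, which bundles microtubules near chromosomes, had 10.001, 12.7 and 14.4 CPM in KO and 14.5, 15.2 and 15.3 CPM in WT neurons with JQ1. With DMSO, Nusap1 had 10.2, 10.7 and 12.8 CPM in KO and 13.7, 15.5 and 17.2 CPM in WT neurons. KO lay below WT in both treatments, with a log2 difference of -0.28 (SE 0.12, adjusted p = 0.155) in JQ1 and -0.46 (SE 0.12, adjusted p = 0.0217) in DMSO. Tpx2, which nucleates spindle microtubules and activates Aurora A, had 15.6, 22.7 and 22.3 CPM in KO and 26.8, 27.9 and 25.7 CPM in WT neurons with JQ1. With DMSO, Tpx2 had 21.9, 21.5 and 25.2 CPM in KO and 26.3, 28.5 and 30.4 CPM in WT neurons. It fell, with a log2 difference of -0.41 (SE 0.11, adjusted p = 0.0398) in JQ1 and the log2 difference in DMSO was -0.31 (SE 0.11, adjusted p = 0.0744), both without overlap, and the call in JQ1 was lost without any 1 of 7 libraries. Hmmr, a spindle protein that is also a hyaluronan receptor, had 5.75, 8.13 and 9.06 CPM in KO and 9.61, 10.7 and 9.71 CPM in WT neurons with JQ1. With DMSO, Hmmr had 7.02, 6.58 and 8.56 CPM in KO and 9.99, 9.08 and 10.1 CPM in WT neurons, wholly below WT in both treatments but with no call (adjusted p = 0.0818 in JQ1 and 0.0631 in DMSO). Kif2c, a kinesin that shortens microtubules, had 3.77, 5.56 and 4.82 CPM in KO and 5.63, 6.16 and 4.43 CPM in WT neurons with JQ1. With DMSO, Kif2c had 5.29, 4.98 and 6.46 CPM in KO and 6.77, 6.74 and 7.18 CPM in WT neurons. Neither genotype nor JQ1 moved it past the threshold.

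Of the 5 genes of the central spindle and cytokinesis, 2 fell in KO neurons with DMSO and 1 fell with JQ1. The share that fell in KO against WT was 40%, beside 7.76% of all genes. The share that fell with JQ1 was 20% in each genotype, below the 29.4% of all genes in KO and 29.3% in WT neurons. Racgap1, which with Kif23 forms centralspindlin, had 23.9, 28.6 and 31.3 CPM in KO and 31.1, 33.4 and 31.7 CPM in WT neurons with JQ1. With DMSO, Racgap1 had 35.8, 34.7 and 39.1 CPM in KO and 40.3, 40.3 and 43.2 CPM in WT neurons. JQ1 libraries lay wholly below DMSO libraries, with a log2 difference of -0.39 (SE 0.08, adjusted p = 0.000907) in KO and -0.36 (SE 0.081, adjusted p = 0.00169) in WT neurons. Kif23, its partner, had 5.22, 7.26 and 7.93 CPM in KO and 7.56, 8.97 and 6.82 CPM in WT neurons with JQ1. With DMSO, Kif23 had 4.33, 4.67 and 6.20 CPM in KO and 5.27, 7.29 and 8.004 CPM in WT neurons. The log2 change with JQ1 in KO neurons was 0.43 for Kif23 (adjusted p = 0.053, or 0.0154 with the replicate block) and 0.21 in WT neurons (adjusted p = 0.339). Prc1, which bundles the overlapping microtubules of the midzone, had 25.2, 37.1 and 36.9 CPM in KO and 40.7, 46.8 and 42.4 CPM in WT neurons with JQ1. With DMSO, Prc1 had 26.97, 30.2 and 33.8 CPM in KO and 37.2, 42.2 and 40.4 CPM in WT neurons. KO lay below WT without overlap in both treatments, with a log2 difference of -0.39 (SE 0.12, adjusted p = 0.0592) in JQ1 and -0.40 (SE 0.12, adjusted p = 0.0422) in DMSO. The Prc1 call in DMSO held in only 5 of the 12 fits that left out a library. Ect2, the exchange factor that activates RhoA at the division plane, had 5.33, 7.39 and 8.47 CPM in KO and 8.73, 9.75 and 8.17 CPM in WT neurons with JQ1. With DMSO, Ect2 had 6.76, 6.73 and 8.41 CPM in KO and 9.23, 10.1 and 10.6 CPM in WT neurons. It fell, with a log2 difference of -0.46 (SE 0.14, adjusted p = 0.04) in DMSO, without overlap, and the log2 difference in JQ1 was -0.35 (SE 0.14, adjusted p = 0.126). Kif20a, a kinesin of the midzone, had 6.15, 7.89 and 8.17 CPM in KO and 8.65, 8.57 and 7.89 CPM in WT neurons with JQ1. With DMSO, Kif20a had 7.02, 6.70 and 7.03 CPM in KO and 7.502, 8.58 and 9.02 CPM in WT neurons, with no call in any comparison.

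Other genes of the same pathways, listed by function, were set beside the members. Over all genes, 7.21% rose and 7.76% fell in KO against WT in DMSO, and 4.85% rose and 4.13% fell in JQ1. In KO against WT neurons with DMSO, 0 of 38 further replication genes rose and 9 (23.7%) fell, among them Orc6 of the origin complex (log2 change -0.28, SE 0.052, adjusted p = 0.00441), the licensing inhibitor Gmnn (log2 change -0.62, SE 0.15, adjusted p = 0.0166) and the chromatin remodeller Hells (log2 change -0.57, SE 0.15, adjusted p = 0.0212). At an unadjusted p under 0.05, 1 of the 38 was higher in KO (Pold2). In JQ1, 1 rose (Pold2) and 3 (7.89%) fell (Pola1, Hells and Cdt1). Of 52 further genes of the spindle, kinetochore and cytokinesis, 0 rose and 9 (17.3%) fell in DMSO and 0 rose and 10 (19.2%) fell in JQ1. At an unadjusted p under 0.05, 1 (Cenpt) was higher in JQ1 and 0 in DMSO. The kinesin Kif4 (log2 change -0.53, SE 0.13, adjusted p = 0.0226 in JQ1, log2 change -0.48, SE 0.13, adjusted p = 0.0231 in DMSO) and the spindle protein Spag5 (log2 change -0.47, SE 0.11, adjusted p = 0.0216 in JQ1, log2 change -0.42, SE 0.12, adjusted p = 0.0315 in DMSO) fell in both. Of 14 condensin and cohesin genes, 8 (57.1%) fell in DMSO and 6 (42.9%) in JQ1 with none higher, also at an unadjusted p under 0.05, and the cohesin subunit Stag1 (log2 change -0.24, SE 0.06, adjusted p = 0.0249 in JQ1, log2 change -0.28, SE 0.059, adjusted p = 0.00836 in DMSO) and the cohesin release factor Wapal (log2 change -0.27, SE 0.063, adjusted p = 0.0168 in JQ1, log2 change -0.25, SE 0.063, adjusted p = 0.0183 in DMSO) were in both counts. The median log2 change in DMSO was -0.19 over the replication list, -0.29 over the spindle list and -0.23 over the condensin and cohesin list, beside -0.01 over all genes.

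The control genes of G1 were called between genotypes, in both directions together, in shares near those of all genes, 14.3% beside 15% in DMSO and 9.52% beside 8.97% in JQ1. All calls in DMSO were lower, 14.3% beside 7.76% of all genes. The log2 change was negative in 17 and positive in 4 in each treatment. KO libraries lay wholly below WT libraries in 9 in DMSO and 7 in JQ1 (42.9% and 33.3%, beside 20.7% and 12.8% of all genes). They lay wholly above in 0 and 1. Of 21 G1/S control genes, 0 rose and 3 fell in KO neurons with DMSO: Rb1, the retinoblastoma protein (log2 change -0.26, SE 0.061, adjusted p = 0.0142), its relative Rbl2 (log2 change -0.17, SE 0.05, adjusted p = 0.038) and Cdk4, the kinase partner of cyclin D1 (log2 change -0.15, SE 0.045, adjusted p = 0.0408). At an unadjusted p under 0.05, 1 (E2f4) was higher in DMSO. In JQ1, Cdk6, the other partner, fell (log2 change -0.97, SE 0.19, adjusted p = 0.00793) and E2f4, a repressor E2F, rose (log2 change 0.26, SE 0.067, adjusted p = 0.0283). Of 8 CDK inhibitor genes, 1 fell in DMSO, Cdkn2c or p18 (log2 change -0.46, SE 0.14, adjusted p = 0.0419), and none passed in JQ1. Of 9 genes of the factors that time mitotic transcription, 2 fell in DMSO, the NF-Y subunit Nfya (log2 change -0.21, SE 0.058, adjusted p = 0.0289) and Lin9 (log2 change -0.38, SE 0.11, adjusted p = 0.0376) of the MuvB core, and none passed in JQ1.

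JQ1 called genes of the same lists in both directions. Over all genes, 27.7% rose and 29.4% fell with JQ1 in KO and 25.9% rose and 29.3% fell in WT neurons. Of the 38 replication genes, 14 (36.8%) rose and 2 (5.26%) fell in KO neurons and 17 (44.7%) rose and 2 (5.26%) fell in WT neurons. The clamp loader subunit Rfc5 rose (log2 change 0.62, SE 0.055, adjusted p = 5.3e-07 in KO, log2 change 0.55, SE 0.056, adjusted p = 2.1e-06 in WT), and the primase catalytic subunit Prim1 fell (log2 change -0.60, SE 0.073, adjusted p = 9.03e-06 in KO, log2 change -0.66, SE 0.073, adjusted p = 4.36e-06 in WT) while its partner Prim2 rose (log2 change 0.45, SE 0.051, adjusted p = 5.17e-06 in KO, log2 change 0.36, SE 0.052, adjusted p = 4.94e-05 in WT). Of the 52 spindle genes, 8 (15.4%) rose and 11 (21.2%) fell in KO and 10 (19.2%) rose and 10 (19.2%) fell in WT neurons, all below the shares over all genes. Cit, a gene that encodes a cytokinesis kinase, fell (log2 change -1.27, SE 0.076, adjusted p = 1.5e-08 in KO, log2 change -1.06, SE 0.077, adjusted p = 8.66e-08 in WT). Counts per gene do not tell the transcripts of Cit apart. The mitotic phosphatase Cdc25b also fell (log2 change -0.93, SE 0.13, adjusted p = 2.98e-05 in KO, log2 change -0.99, SE 0.13, adjusted p = 1.89e-05 in WT), and the checkpoint gene Mad1l1 rose (log2 change 0.65, SE 0.059, adjusted p = 6.41e-07 in KO, log2 change 0.72, SE 0.061, adjusted p = 3.88e-07 in WT). Of the 14 condensin and cohesin genes, 7 (50%) rose and 0 fell in KO and 5 (35.7%) rose and 1 (7.14%) fell in WT neurons, and the cohesin subunit Smc3 rose in both (log2 change 0.42, SE 0.053, adjusted p = 1.27e-05 in KO, log2 change 0.42, SE 0.053, adjusted p = 1.27e-05 in WT). Of the 21 G1/S control genes, 9 (42.9%) rose and 5 (23.8%) fell in KO and 6 (28.6%) rose and 4 (19%) fell in WT neurons. E2f5, a repressor E2F (log2 change 0.88, SE 0.081, adjusted p = 7.04e-07 in KO, log2 change 0.84, SE 0.082, adjusted p = 1.32e-06 in WT), and Ccnd3, cyclin D3 (log2 change 0.61, SE 0.058, adjusted p = 1.05e-06 in KO, log2 change 0.57, SE 0.06, adjusted p = 2.64e-06 in WT), rose while Ccnd1 fell. Myc, a known target of BET proteins in blood cancers, fell (log2 change -0.34, SE 0.05, adjusted p = 5.6e-05 in KO, log2 change -0.31, SE 0.051, adjusted p = 0.000162 in WT).

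Of the 8 CDK inhibitor genes, p21 and p57 fell and p27 rose with JQ1 in both genotypes, in shares below those of all genes. In each genotype 25% fell and 12.5% rose. Of all genes, 29.4% fell and 27.7% rose in KO, and 29.3% fell and 25.9% rose in WT neurons. Cdkn1a, p21, had a log2 difference of -0.99 (SE 0.078, adjusted p = 1.88e-07) in KO and -0.96 (SE 0.08, adjusted p = 3.22e-07) in WT neurons, and Cdkn1c, p57, one of -1.24 (SE 0.12, adjusted p = 1.03e-06) in KO and -1.17 (SE 0.12, adjusted p = 1.71e-06) in WT neurons. Cdkn1b, p27, rose, with a log2 difference of 0.30 (SE 0.071, adjusted p = 0.00245) in KO and 0.34 (SE 0.072, adjusted p = 0.00116) in WT neurons, and the other 5 genes of the list of 8 did not pass. Of the 9 mitotic transcription genes, 2 rose and 1 fell in each genotype: the NF-Y subunit Nfyc fell (log2 change -0.37, SE 0.068, adjusted p = 0.000327 in KO, log2 change -0.49, SE 0.069, adjusted p = 4.01e-05 in WT), whereas Nfya (log2 change 0.40, SE 0.058, adjusted p = 4.8e-05 in KO, log2 change 0.28, SE 0.058, adjusted p = 0.00105 in WT) and Lin54 (log2 change 0.39, SE 0.072, adjusted p = 0.000381 in KO, log2 change 0.30, SE 0.073, adjusted p = 0.00269 in WT) rose. These 9 genes were thus 22.2% higher and 11.1% lower in each genotype, also below the shares over all genes. Astrocyte markers fell with JQ1 in 7 of 12 genes in KO and 8 of 12 in WT neurons (58.3% and 66.7%, beside 29.4% and 29.3% of all genes). Of the 12 progenitor markers, 2 rose and 2 fell in KO and 1 rose and 2 fell in WT neurons, 8.33% to 16.7%, below the shares over all genes. Their part in the changes with JQ1 was not tested.

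The authors' deposited table of KO against WT gave an adjusted p for all 43 members. At an adjusted p under 0.05, the authors' deposited table had 23 members lower and 1 higher in KO. Of the 11880 genes with an adjusted p, 2822 (23.8%) lay under 0.05 in either direction, and 1288 of these were lower in KO. The direction was read from Fmr1, whose log2 fold change in the authors' deposited table was -2.00. Ccnd1 had 0.40 (adjusted p = 1.01e-08), Cenpf -0.48 (adjusted p = 1.18e-06) and Mcm4 -0.36 (adjusted p = 6.65e-06) in the authors' deposited table, and the median over the members was -0.28.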

How the data were processed

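RNA of cultured cortical neurons was purified with RNeasy columns, made into TruSeq RNA libraries and sequenced as 75 bp single reads, per the labels' protocols. Per the submitters' processing notes, the authors used TopHat2 2.1.0, build mm9, SAMtools 0.1.19 and HTSeq 0.6.1, with DESeq2 and DESeq. Library strand and counting settings are not given here, so overlapping and antisense genes are uncertain. The deposited table holds raw read counts per gene, and ERCC rows were left out of library sizes. The authors' deposited DESeq2 table holds log2 fold changes and adjusted p-values, which were quoted and not tested.

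Here edgeR 4.0.16, run in R 4.3.3, tested the counts. Its filterByExpr at a minimum count of 10 kept 15433 of 37310 genes, libraries were scaled by TMM, and 1 mean per group was fitted to 12 libraries with 8 residual degrees of freedom. P-values of its quasi-likelihood tests had Benjamini-Hochberg adjustment over all 15433 genes. SEs come from the test statistic. Alternatives were DESeq2 1.42.0, other scalings and filters, a replicate block and leaving out libraries. Same-numbered libraries deviated together in JQ1 against DMSO in KO neurons (correlations 0.21 to 0.29), so blocked values stand beside the results they change there.

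The 43 members, their roles and the pathway and marker lists were chosen with earlier results of these data known. Values per library were given for the member of highest mean CPM in each role, members called between genotypes and those of smallest adjusted p with JQ1 in WT neurons, and for Mcm6, Plk1, Melk and Kif20a after their values were seen. Named list genes were among the 4 of smallest adjusted p in a comparison.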

Additional observations from a re-analysis of the deposited data

Results flagged for a closer look

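Aurka, the gene of the mitotic kinase Aurora A, had JQ1 libraries on opposite sides of the DMSO libraries in the 2 genotypes. All 3 KO libraries with JQ1 (4.80, 5.91 and 5.74 CPM) lay below all 3 KO libraries with DMSO (6.38, 5.96 and 6.09 CPM). All 3 WT libraries with JQ1 (5.96, 6.09 and 7.19 CPM) lay above all 3 WT libraries with DMSO (5.86, 5.79 and 5.91 CPM). The KO response minus the WT response was -0.26 on the log2 scale (SE 0.14), which did not pass edgeR's quasi-likelihood test (adjusted p = 1). The gaps between the nearest libraries of the compared groups were small beside the range within a group.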

How the results depend on the processing

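The number of members called between genotypes depended on the processing. For KO against WT in DMSO it was 17, and it became 42 with spike-in scaling (all lower), 26 without both KO replicate 3 libraries, and 3 to 25 when 1 library was left out. The share over all genes moved too: it was 15%, and 77.7%, 20.3% and 5.77% to 17.4% in those fits. For KO against WT in JQ1 it was 7, and it became 0 with spike-in scaling, 16 with the DESeq2 Wald test, 18 with no low-count filter, 4 with only the libraries compared, 20 with the replicate block, 19 without both KO replicate 3 libraries, and 2 to 14 when 1 library was left out. All genes there gave 8.97%, and 0.149%, 14.3%, 6.35%, 4.36%, 12.7%, 15.8% and 3.48% to 12.7% in the same order. For JQ1 against DMSO in KO neurons it was 12, and it became 0 with spike-in scaling and 15 with the replicate block (57.1%, 9.85% and 58.3% of all genes). Leaving out 1 library gave 8 to 15 there, with 50.9% to 56.8% of all genes called. In WT neurons it was 11, and 9 to 12 when 1 library was left out (55.1%, and 48.2% to 56.4% of all genes). Between genotypes the replicate numbers are shared only as numbers, with correlations of -0.18 to 0.011 in DMSO and -0.016 to 0.12 in JQ1, and 0 and 2 of 3 libraries correlated best with their own number; in JQ1 against DMSO in WT neurons the correlations were 0.094 to 0.16 (3 of 3). Blocked counts were 25 in DMSO and 20 in JQ1, with 18.1% and 12.7% of all genes.

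With spike-in scaling the median log2 change of all genes was -0.82 in KO against WT in DMSO, -0.12 in JQ1, and 0.07 in KO and -0.63 in WT neurons for JQ1 against DMSO. The ERCC amount per sample is not given here. Under it, values called with one of the scalings that reversed for JQ1 in WT neurons were E2f1 (-0.32), Mcm2 (-0.35), Mcm6 (-0.28), Mcm7 (-0.33), Pcna (-0.16), Tyms (-0.13), Bub1 (-0.22) and Ttk (-0.26), and in KO against WT in DMSO Ccnd1 (-0.40), E2f1 (-0.65), Aurka (-0.75) and Plk1 (-0.73). The cause was not tested. Of 4042 single-gene values under the alternatives, 3720 kept their side of the threshold, 162 became calls, 148 lost one and 12 values called in either fit reversed. Among the 3720, 209 uncalled values changed sign, 39 of them with spike-in scaling. At these depths, with 3 libraries a group, precision is limited by how replicates vary.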
